A study of Rattus norvegicus with 38 samples.

Results

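Exonic and untranslated-region peaks of the histone mark H3K27ac were examined in 2 brain regions, the substantia nigra (SN) and the motor cortex, of rotenone-exposed and vehicle-treated rats. They are the differentially acetylated peaks that the study annotated to an exon, a 5' UTR, a 3' UTR or the sequence just downstream of a gene. There were 1215 of them among the 151509 deposited peaks, which comprised 70744 SN and 80765 motor cortex peaks. The members were chosen by the study's own test of rotenone against vehicle and by its annotation, so their direction is a description and was not tested again. A peak is called hyperacetylated here where the study listed it as higher in rotenone-exposed rats and hypoacetylated where it was listed as lower. The deposited values are peak positions alone, each list called on reads pooled over the rats of a region, with no read count or signal per rat. No fold change, replicate error or test over rats is therefore given, and intervals are 95% Wilson intervals that cover counting error only. Peaks of 1 list share the same animals and are not replicates of a condition.

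The animals were 9 male Lewis rats of 8 to 10 months, 5 given rotenone and 4 given vehicle. Rotenone was injected intraperitoneally at 2.8 mg/kg daily for 21 days, and tissue was dissected 24 h after the last injection. The sources name the vehicle in different ways, as PBS in one label and as a Miglyol oil in the protocol. Both regions came from the same rats, the SN samples carry the tissue label ventral midbrain, and every unenriched input run is labelled cortex. The tissue was bulk, so a change in the number of cells of a type and a change in acetylation per cell cannot be told apart.

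Acetylation of histone H3 at lysine 27 is laid down at active promoters and enhancers, and broad domains of it often extend from a promoter into the gene body. A peak over an exon or UTR may therefore be the edge of a promoter domain, an enhancer lying inside a gene, or part of a domain that covers a whole short gene. Annotation software places each peak in 1 class by a fixed priority and, separately, assigns it to the gene with the nearest transcription start, so the gene a peak lies in and the gene it is assigned to can differ. Rotenone blocks complex I of the mitochondrial respiratory chain and is used in rats to model Parkinson's disease, in which dopaminergic neurons of the SN are lost.

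Several members lay in host genes of microRNAs, short RNAs that pair with messenger RNAs through a seed at bases 2 to 8. Their assigned gene was a microRNA for 14 members and 12 microRNA genes, a group chosen after the peaks had been seen. The mature sequences below are from RefSeq (assembly GRCr8), written 5' to 3' with the seed in capitals, and are shown for the microRNAs whose peaks are described in the text.
miR-204-5p: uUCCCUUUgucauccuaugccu
miR-211-5p: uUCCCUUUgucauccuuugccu
miR-326-3p: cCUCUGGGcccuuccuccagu
miR-139-5p: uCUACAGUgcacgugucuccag
miR-107-3p: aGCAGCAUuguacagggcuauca
miR-218a-5p: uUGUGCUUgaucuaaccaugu
miR-204-5p and miR-211-5p carry the same seed, UCCCUUU, and no other of the 724 mature sequences in the table has it. Their peaks were listed in opposite directions in the motor cortex. The 2 peaks assigned to Mir204, in exons of its host gene Trpm3, a cation channel gene, were hyperacetylated (chr1:220477297-220478607 and chr1:220480811-220483151, mRatBN7.2). The peak assigned to Mir211 was hypoacetylated (chr1:117781197-117782907). Mir326 was the microRNA with members in both regions, and both of its peaks were hyperacetylated. They lay in exons of Arrb1, which encodes beta-arrestin 1, an adaptor of G-protein-coupled receptors, and measured 1688 bp in the SN (chr1:153885499-153887186) and 5261 bp in the motor cortex (chr1:153885646-153890906). Of the remaining microRNA members, Mir139 had a hypoacetylated motor cortex peak of 8229 bp with no SN peak beneath it. Mir107 also had a hypoacetylated motor cortex peak, of 1091 bp, while a hyperacetylated one of 832 bp assigned to Mir218-2 lay in an exon of its host Slit3, an axon guidance gene.

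The 4 lists differed in size and in make-up. The paper reports more reads in the motor cortex than in the SN. It says that this may account for part of the gap in listed peaks, which was not tested here. In the SN, 104 members were hyperacetylated, of which 56 were exonic, 38 in a 3' UTR, 8 in a 5' UTR and 2 downstream of a gene. Another 130 SN members were hypoacetylated, with 90 exonic, 32 3' UTR, 6 5' UTR and 2 downstream peaks. In the motor cortex there were 617 hyperacetylated members, comprising 421 exonic, 164 3' UTR, 22 5' UTR and 10 downstream peaks. The 364 hypoacetylated motor cortex members comprised 281 exonic, 68 3' UTR, 11 5' UTR and 4 downstream peaks. As the background for these lists, peaks of every class listed as hyperacetylated made up 1.24% of the deposited SN peaks and hypoacetylated ones 1.72%. The corresponding shares of the deposited motor cortex peaks were 4.97% and 6.45%. The deposited SN list is longer than the number of SN peaks the study describes as called, and how many peaks entered its test cannot be read from the files. Every SN background share and median given here is over the longer deposited list, and nothing is read from these shares about the members.

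Exonic and UTR peaks leaned more towards hyperacetylation in the motor cortex than in the SN. Of the motor cortex members, 62.9% (617 of 981, interval 59.8 to 65.9%) were hyperacetylated, against 43.5% of listed peaks of every class. The corresponding share in the SN was 44.4% (104 of 234, 38.2 to 50.9%), near the 41.8% of all listed SN peaks. Within the members, 3' UTR peaks were more often hyperacetylated than exonic ones in each region. The shares were 70.7% (64.5 to 76.2%) of 3' UTR and 60.0% (56.3 to 63.5%) of exonic peaks in the motor cortex. In the SN they were 54.3% (42.7 to 65.4%) of 3' UTR and 38.4% (30.9 to 46.5%) of exonic peaks, with overlapping intervals. SN promoter peaks, those within 3 kb of a transcription start, stood apart from the members at 73.2% (68.5 to 77.4%), whereas motor cortex promoter peaks were close to them at 59.8% (56.8 to 62.7%). Distal intergenic peaks were the least often hyperacetylated of the 3 other classes, at 30.4% (SN) and 32.1% (motor cortex). These shares come from lists chosen by the contrast itself, and peaks that neighbour each other are counted separately, so no test of the differences is given.

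**Figure D1:**
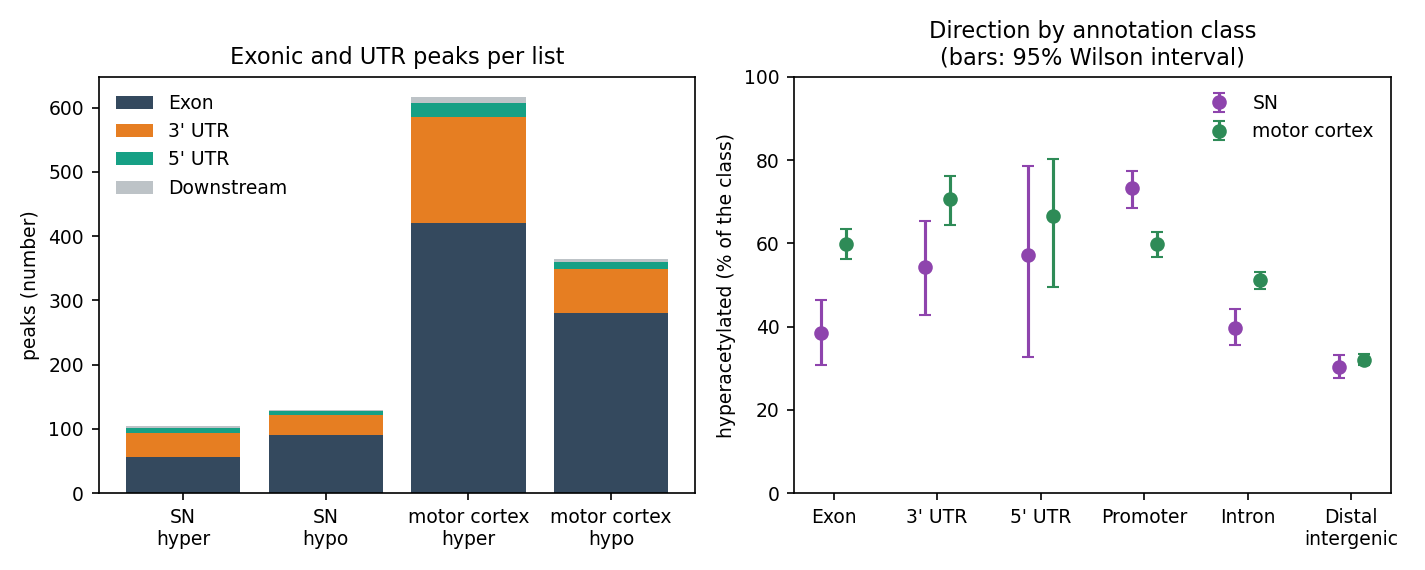
Left, number of exonic and UTR peaks in each of the 4 lists, stacked by annotation class. Right, share of each class that was hyperacetylated (%), with 95% Wilson intervals, where motor cortex 3' UTR peaks sit at 70.7% and SN exonic peaks at 38.4%.

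The members were wide peaks. The median width was 2817 bp for hyperacetylated and 2800.5 bp for hypoacetylated SN members, against 994 bp over the whole SN list. The motor cortex medians were 2236 bp and 2499.5 bp against 1245 bp. The middle 50% of hyperacetylated members lay between 2044.25 and 4707.5 bp (SN) and between 1217 and 3474 bp (motor cortex). Peaks of other classes in the same lists were also wider than the region's median, for example 2321 bp for hyperacetylated intronic SN peaks and 1605 bp for hyperacetylated intronic motor cortex peaks, so width was not particular to exons and UTRs. Hyperacetylated 3' UTR peaks of the SN had a median of 3714.5 bp, against 2465 bp for exonic ones. The order was reversed among hypoacetylated SN members, at 2217.5 bp for 3' UTR and 2831.5 bp for exonic peaks. In the motor cortex the 3' UTR and exonic medians were 2602.5 and 2148 bp (hyperacetylated) and 2812 and 2400 bp (hypoacetylated). Peaks of 5 kb or more numbered 22 and 28 among the hyperacetylated and hypoacetylated SN members and 80 and 64 among those of the motor cortex.

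**Figure D2:**
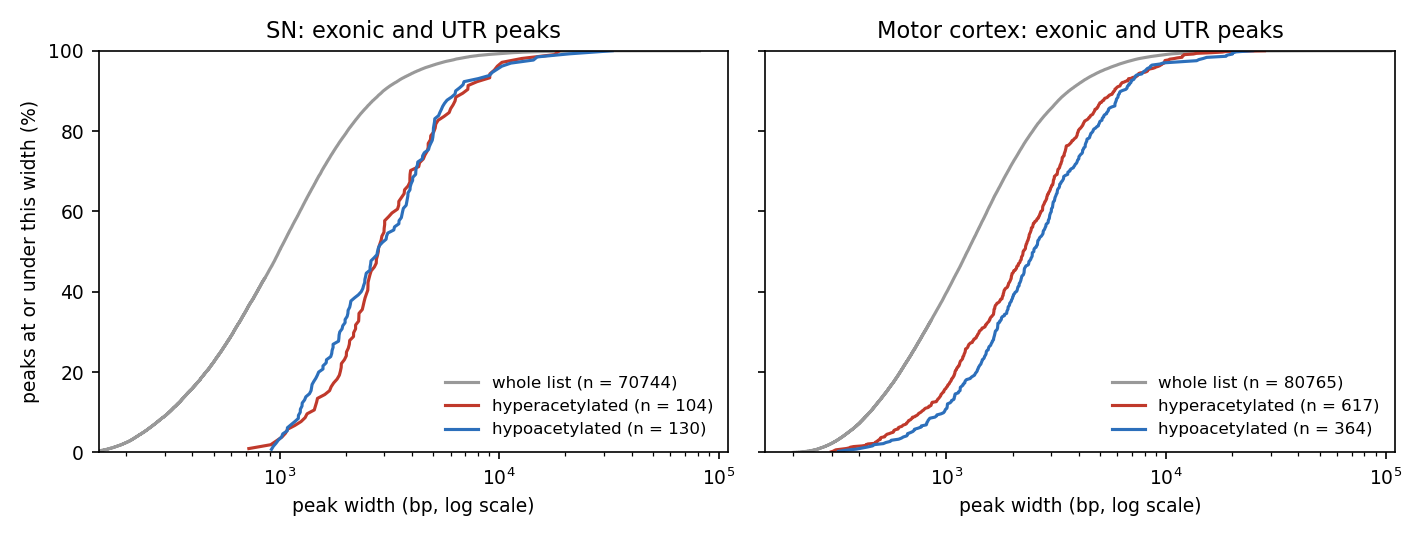
Cumulative share of peaks (%) at or under a given width (bp, log scale) by region, for the whole list and for hyperacetylated and hypoacetylated exonic and UTR peaks. The member curves lie to the right of the whole list, with medians of 2817 and 2800.5 bp against 994 bp in the SN.

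The gene named for a UTR or downstream peak is the assigned one, that with the nearest transcription start, since the gene of the UTR itself was not read. The same holds for every hypoacetylated motor cortex peak, exonic ones included. The 5 widest hyperacetylated SN members were 3' UTR peaks. The peak assigned to Klf13, which encodes a Krüppel-like zinc finger transcription factor, spanned 18773 bp (chr1:117500593-117519365). Next came Ralgds, an exchange factor for the small GTPase Ral, at 17837 bp (chr3:11862497-11880333), and Mcl1, an anti-apoptotic protein of the Bcl-2 family, at 12657 bp (chr2:183224427-183237083). Zfp335, a zinc finger protein, followed at 10278 bp (chr3:153623495-153633772), and Ptpa, an activator of protein phosphatase 2A, at 9797 bp (chr3:13711290-13721086). Mcl1 and Ralgds also had a hyperacetylated promoter peak in the SN. At the other end, the narrowest hyperacetylated SN member, in an exon of the mitochondrial ribosomal gene Mrps18a, measured 724 bp.

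The widest hypoacetylated SN member was an exonic peak of Gab1, an adaptor of growth factor receptor signalling, at 32670 bp (chr19:27183350-27216019), which ranked 10 by width among all SN peaks. Slain1, which encodes a microtubule plus-end protein, had a 5' UTR peak of 20814 bp (chr15:80514382-80535195). Exonic peaks of Dnaaf9, an axonemal dynein assembly factor gene, Dennd5a, a Rab exchange factor gene, and Pbx3, a homeobox gene, measured 14871, 14310 and 11292 bp. Pbx3 had 2 exonic members among 17 hypoacetylated SN peaks of every class assigned to it. The narrowest, 918 bp long, lay in an exon of the BK potassium channel gene Kcnma1.

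The widest hyperacetylated motor cortex member lay in an exon of Zbtb16, a zinc finger transcription factor gene known to be induced by glucocorticoids, and spanned 28041 bp (chr8:49059725-49087765). A second hyperacetylated peak of 3356 bp (chr8:49056179-49059534) also lay in an exon of Zbtb16 but was assigned to Nnmt. Cox4i2, a subunit isoform of cytochrome c oxidase, had a 3' UTR peak of 18817 bp (chr3:141251905-141270721). The 3' UTR peak assigned to Klf13 measured 18015 bp in this region (chr1:117501023-117519037). A peak of 16017 bp (chr5:131679972-131695988) in an exon of Kdm4a, a histone demethylase gene, was assigned to the sialyltransferase gene St3gal3. Bicd2, a dynein adaptor gene, completed the 5 widest with an exonic peak of 13734 bp (chr17:15274304-15288037), while the narrowest, in Stau1, measured 299 bp.

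Among hypoacetylated motor cortex members, the widest was a 3' UTR peak assigned to Chrna1, a nicotinic acetylcholine receptor subunit gene, at 24761 bp (chr3:58491357-58516117). SN peaks covered 7.47% of it. An exonic peak assigned to Nipal4, a magnesium transporter family gene, measured 20846 bp and was 17.8% covered (chr10:30646669-30667514). The exonic peak assigned to Scn3b, a sodium channel beta subunit gene, spanned 20049 bp and was 87.8% covered (chr8:40691078-40711126). The long non-coding gene Cahm was assigned a 3' UTR peak of 20035 bp that an SN peak covered in full (chr1:50299456-50319490). The next, a 3' UTR peak of 18905 bp (chr11:68875570-68894474) whose assigned gene could not be read, was 5.58% covered. The narrowest, a 3' UTR peak assigned to the telomere-binding protein gene Terf2ip, measured 323 bp.

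Most members overlapped a peak of the other region, SN members more often than motor cortex members. In the SN, 86.5% (90 of 104, 78.7 to 91.8%) of hyperacetylated and 93.1% (121 of 130, 87.4 to 96.3%) of hypoacetylated members overlapped a motor cortex peak by at least 1 bp, against 65.3% of all SN peaks. Of motor cortex members, 69.4% (428 of 617, 65.6 to 72.9%) of the hyperacetylated and 63.7% (232 of 364, 58.7 to 68.5%) of the hypoacetylated ones overlapped an SN peak, against 55.1% of all motor cortex peaks. Other classes in the same 4 lists, taken in the same order, gave 96%, 93%, 86% and 84% for promoter peaks. Intronic peaks gave 81%, 81%, 69% and 56%, and distal intergenic ones 88%, 68%, 66% and 51%. Overlap was therefore not particular to exons and UTRs. Width moved with the share that overlapped. Of SN peaks of 2000 to 4000 bp, 93.5% of members (87 of 93, 86.6 to 97.0%) and 94.8% of the whole list overlapped a motor cortex peak, and in the motor cortex the same width band gave 69.7% (64.6 to 74.3%) and 71.4%. The other bands did not all match so closely. Between 1000 and 2000 bp the motor cortex members stood at 66.3% (60.5 to 71.6%), above the 58.7% of the whole list, and 45 of 60 SN members overlapped (62.8 to 84.2%) against 79.6%. From 4000 bp the shares were 78.3% (72.4 to 83.2%) against 82.7% in the motor cortex, and in the SN 74 of 74 members overlapped, against 98.9%. Below 1000 bp they were 45.7% (63 of 138, 37.6 to 54.0%) against 38.3% in the motor cortex and 71.4% (5 of 7, 35.9 to 91.8%) against 44.4% in the SN.

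**Figure D3:**
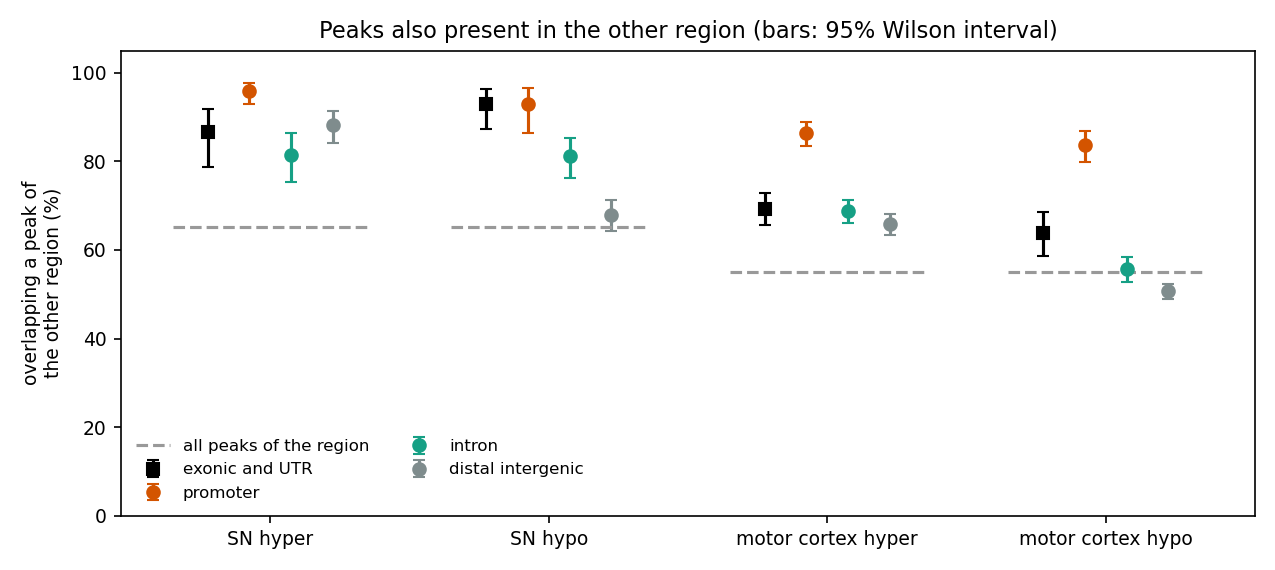
Share of listed peaks (%) that overlap a peak of the other region by at least 1 bp, by list and annotation class, with 95% Wilson intervals; dashed lines give the share for all peaks of the region. Exonic and UTR peaks lie above the dashed line in each list, for example 93.1% against 65.3% for hypoacetylated SN peaks.

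Some members had no peak of the other region beneath them. The widest such hyperacetylated SN peak lay in an exon of Adpgk, an ADP-dependent glucokinase gene, with 3704 bp (chr8:59710250-59713953) and a motor cortex peak 373 bp away. Others were 3' UTR peaks of Sh2d4b (2577 bp), Vhl, which targets hypoxia-inducible factor for degradation (2169 bp), and Slc13a3, a dicarboxylate transporter gene (2076 bp), and an exonic peak of the dynactin gene Actr1a (2524 bp). Hypoacetylated SN peaks of this kind were narrower. They were led by a 3' UTR peak of 2351 bp assigned to the neuropeptide gene Spx and included exonic peaks of Cyb5a, which encodes cytochrome b5, at 1575 bp and Dpy19l3 at 1461 bp. A pair of 3' UTR peaks, of 1986 and 1726 bp, had no readable gene.

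Motor cortex peaks without an SN peak were wider. The hyperacetylated ones were led by an exonic peak of the deubiquitinase gene Usp36 at 11853 bp (chr10:103512482-103524334) and by a pair of peaks in exons of Gas7, a gene active in neurons. The Gas7 peaks measured 11821 bp (chr10:52346661-52358481) and 10868 bp (chr10:52358632-52369499), and the nearest SN peak was 36671 bp from the second. Sipa1l1, a postsynaptic Rap regulator gene, followed at 9880 bp, then a 5' UTR peak of Arl6ip4 at 9788 bp. The hypoacetylated ones were led by an exonic peak assigned to the homeobox gene Pknox2 at 18731 bp (chr8:36641665-36660395), 18971 bp from the nearest SN peak. Peaks of 7817 to 8475 bp assigned to Bhlha15, Mir139, Ddrgk1 and Ntrk2 came next.

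Where a listed SN peak overlapped a listed motor cortex peak and at least 1 of them was exonic or in a UTR, the directions were the same with 1 exception. Opposite directions were rare in other classes too. Of hyperacetylated SN peaks, 4 of 276 promoter, 1 of 189 intronic and 6 of 305 distal intergenic ones overlapped a hypoacetylated motor cortex peak. The promoter peak of the exception, at Adpgk, is among those 4. Of hypoacetylated SN peaks, 1 of 101 promoter, 0 of 286 intronic and 2 of 699 distal intergenic ones overlapped a hyperacetylated motor cortex peak. The paper reports a lower share with the same direction, over peaks of every class that were significant in both regions. The reason for this difference was not examined here. Of the hyperacetylated SN members, 30.8% (32 of 104, 22.7 to 40.2%) overlapped a hyperacetylated motor cortex peak, against 4.55% of all SN peaks. A hypoacetylated motor cortex peak was overlapped by 0 of 104, which allows a share of up to 2.88% by the limit of 3 counts that a count of 0 leaves, and 4.66% of all SN peaks overlapped one. Hypoacetylated SN members mirrored this, with 39.2% (51 of 130, 31.3 to 47.8%) over a hypoacetylated motor cortex peak and 0 over a hyperacetylated one, which by the same limit allows up to 2.31%. From the motor cortex side, 5.51% (34 of 617, 3.97 to 7.60%) of hyperacetylated members overlapped a hyperacetylated SN peak, against 1.14% of all motor cortex peaks. Among hypoacetylated motor cortex members the share over a hypoacetylated SN peak was 12.1% (44 of 364, 9.13 to 15.8%), against 1.37%. The background shares are over all deposited peaks, which were narrower than the members. Listed peaks of other classes gave shares of the same order, since 23.9% of hyperacetylated promoter and 26.5% of hyperacetylated intronic SN peaks overlapped a hyperacetylated motor cortex peak. Both regions were taken from the same rats, so the same direction in both is not 2 independent observations.

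Counted as pairs, 104 overlaps joined a listed SN peak with a listed motor cortex peak where at least 1 was exonic or in a UTR. Of these, 44 were hyperacetylated in both regions, 59 hypoacetylated in both and 1 opposite. Both peaks were members in 71 pairs, 29 hyperacetylated and 42 hypoacetylated, and the 2 peaks carried different classes in 3 of them. The SN peak was the wider in 52 of the 71 pairs, with a median of 3917 bp against 3114 bp for the motor cortex peak. SN members were the wider in general, with medians of 2817 and 2800.5 bp against 2236 and 2499.5 bp, although motor cortex peaks were wider over the whole lists. An SN peak over several listed motor cortex peaks, as at Psd4 and Btla, counts in more than 1 pair.

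Among the widest hyperacetylated pairs were Klf13 (18773 bp in the SN and 18015 bp in the motor cortex) and a pair assigned to Mcl1 in the SN (12657 bp) and to its neighbour Adamtsl4 in the motor cortex (4517 bp). Zfp335 was next, with peaks of 10278 and 9565 bp. The 3' UTR peaks of Txnrd2, the mitochondrial thioredoxin reductase gene, measured 9493 and 11878 bp. The widest hypoacetylated pairs were Slain1 (20814 and 15299 bp), Wipf1, a regulator of actin polymerisation (10267 and 5463 bp), and Lmbrd1, a lysosomal cobalamin export gene (9019 and 5523 bp). They were followed by Sspn, of the dystrophin-associated complex (6909 and 5932 bp), and Lrpprc, which stabilises mitochondrial messenger RNAs (5523 and 3803 bp).

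The opposite pair lay at Adpgk. A hyperacetylated promoter peak of the SN (chr8:59695394-59710103, 14710 bp) ran over a hypoacetylated exonic peak of the motor cortex (chr8:59705785-59708348). The locus held 2 listed SN peaks, both hyperacetylated, the promoter peak and the exonic peak of 3704 bp beside it. The same locus held 5 listed motor cortex peaks, all of them hypoacetylated, over 31.7 kb, 3 of them exonic or UTR members. Counting peaks up to 1000 bp apart as well, opposite directions were seen in 4 of 128 pairs, 2 of them at Adpgk. The remaining ones were at Fam53b, with an intronic SN peak hypoacetylated and an exonic motor cortex peak hyperacetylated 255 bp away, and at Snhg11, a small nucleolar RNA host gene, with 3' UTR peaks 227 bp apart in the same directions as Fam53b.

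**Figure D4:**
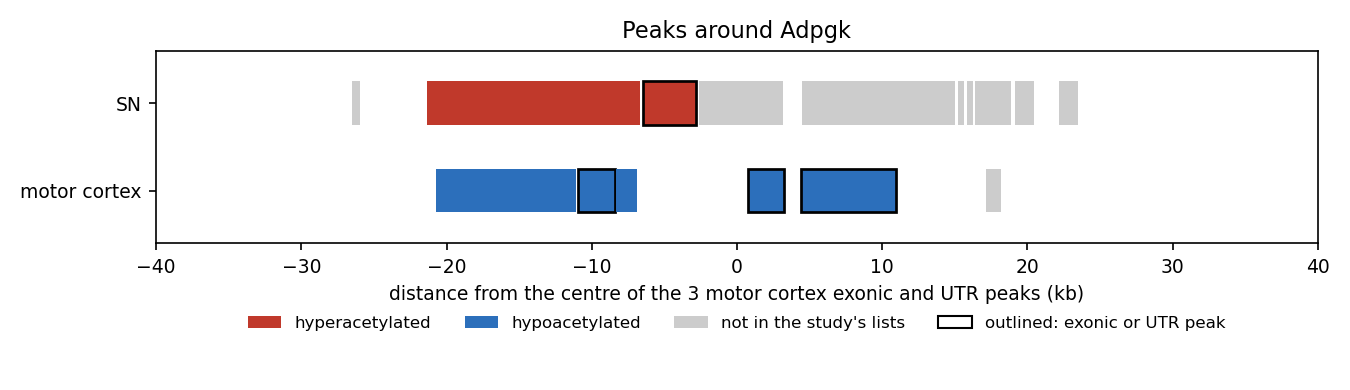
Peaks of the SN and the motor cortex around Adpgk, by distance (kb) from the centre of the 3 motor cortex exonic and UTR peaks, coloured by whether the study listed them as hyperacetylated, hypoacetylated or not at all. The 2 listed SN peaks are hyperacetylated and the 5 listed motor cortex peaks hypoacetylated.

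Exonic members often lay in a different gene from the one they were assigned to. The exon's gene could be read in 3 of the lists, the hypoacetylated motor cortex list being the exception. There, 202 of 551 exonic members (36.7%, 32.7 to 40.8%) lay in an exon of another gene than the assigned one, against 333 of 1688 intronic peaks of the same lists (19.7%, 17.9 to 21.7%) that lay in an intron of another gene. By list, the share was 40.0% (22 of 55, 28.1 to 53.2%) for hyperacetylated and 28.2% (24 of 85, 19.8 to 38.6%) for hypoacetylated SN members and 38.0% (156 of 411, 33.4 to 42.7%) for hyperacetylated motor cortex members. Both genes were on the same chromosome in 200 of the 202 cases. The exceptions were peaks in exons of Ctps1 and Aak1, assigned by the names read to Slfn1 and Rpl22. A nearest transcription start cannot lie on another chromosome, so those assigned names may be misread. In gene order along the chromosome, no more than 5 annotated genes came between them in 196 cases and none in 109. This count can include genes lying inside the exon's gene, since it was 9 for Mir204 and its host Trpm3. It is therefore not a measure of the distance between them.

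Among the widest of these in the hyperacetylated SN list, an exon of Cacng4, an auxiliary subunit gene of AMPA receptors, held a peak assigned to Cacng1 (6342 bp). Ralgdsl1 held 1 assigned to Tsen15 (5603 bp) and Ppfibp2 1 assigned to Cyb5r2 (5265 bp). The peak assigned to the cytokine subunit gene Il12a lay in an exon of Schip1 (4861 bp), with 3 annotated genes between them by that count. Of the hypoacetylated SN peaks, adjacent ones of 6060 and 5780 bp in exons of the kinase gene Hipk2 were assigned to Clec2l. Peaks in exons of Gpld1, Tbc1d12 and Mcu, the pore of the mitochondrial calcium uniporter, were assigned to Mrs2 (5086 bp), Hells (5071 bp) and Oit3 (5015 bp).

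Among motor cortex members, 3 hyperacetylated exonic peaks of Gas7 were assigned to Rcvrn, the gene of the retinal calcium sensor recoverin. They followed one another over 29.2 kb and 0 of them overlapped an SN peak. A peak in an exon of Mical3 was assigned to the pro-apoptotic gene Bid (9594 bp). Another in an exon of Tenm4, a teneurin gene, was assigned to Nars2 (9348 bp), with 9 annotated genes between them by the same count. Dnajc6, singled out after its values were seen, encodes auxilin, which uncoats clathrin-coated vesicles in neurons and is mutated in juvenile parkinsonism. It held 4 hyperacetylated motor cortex exonic peaks of 1747 to 5373 bp, 3 assigned to Leprot and 1 with an unreadable name, and 2 of the 4 overlapped an SN peak.

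**Figure D5:**
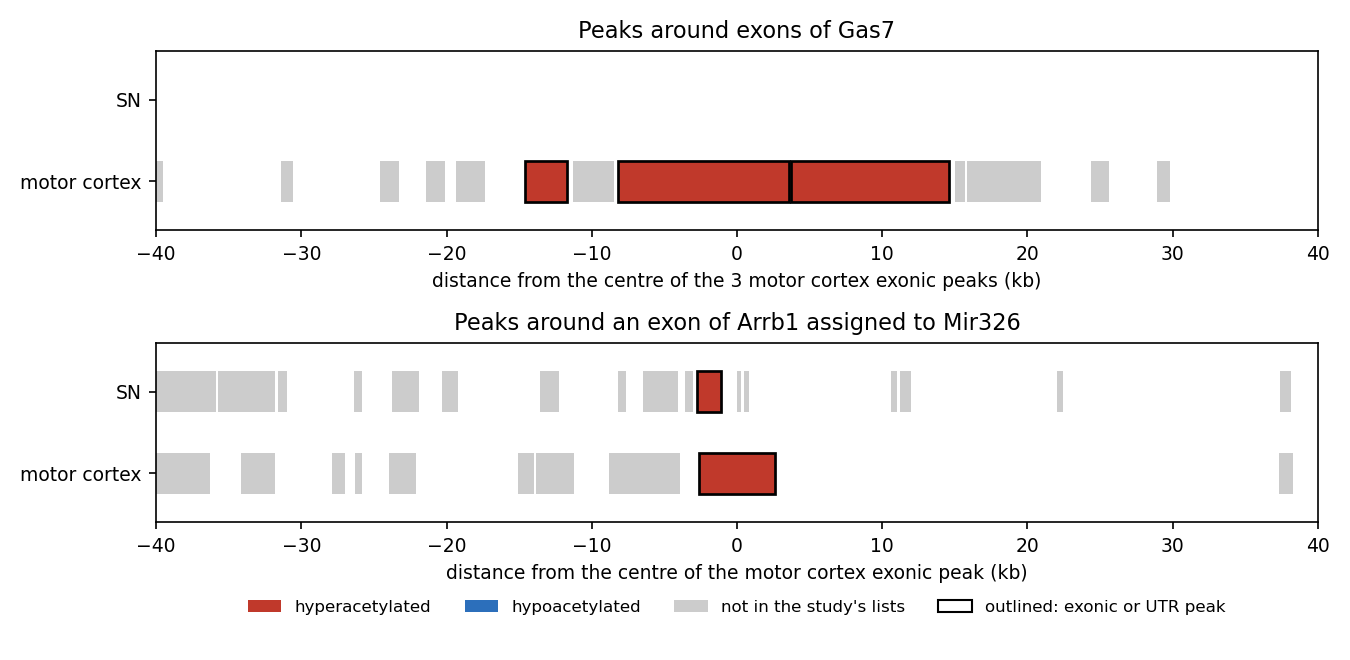
Peaks around the motor cortex exonic members at Gas7 and at Arrb1 (assigned gene Mir326), by distance (kb) from their centre, for the SN and the motor cortex, coloured by the study's listing. The window at Gas7 holds 13 motor cortex peaks, 3 of them hyperacetylated, and no SN peak, whereas the window at Arrb1 holds 1 hyperacetylated peak in each region.

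Most genes had a single exonic or UTR member. The members with a readable name were assigned to 97, 117, 515 and 318 genes in the hyperacetylated SN, hypoacetylated SN, hyperacetylated motor cortex and hypoacetylated motor cortex lists. A gene with more than 1 member in its list was found 4, 5, 80 and 26 times. In the SN the highest number was 3, for hyperacetylated peaks assigned to Sh2d4b, of which 2 lay in exons of the neighbouring tetraspanin gene Tspan14. In the motor cortex, 10 genes had 3 hyperacetylated members. For Hacd3, E4f1, Vezf1 and Elmo1 the exons were the gene's own. Elmo1, an engulfment gene, lay in a run of 12 hyperacetylated peaks over 84.1 kb, 9 of them intronic. For F7, Hsd17b1, Leprot, Rcvrn and Umps the exons read were those of Mcf2l, Atp6v0a1, Dnajc6, Gas7 and Itgb5.

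By assigned gene, hypoacetylated motor cortex members were most numerous for Vsir, an immune checkpoint receptor gene, with 6 peaks of 743 to 7883 bp between chr20:28247776 and chr20:28339817. Ntrk2, which encodes the BDNF receptor TrkB, was assigned 4 exonic peaks of 1154, 2639, 6679 and 7817 bp, and 2 of them had no SN peak beneath. Myo5c, an unconventional myosin gene, was assigned 4 peaks of 2182 to 6908 bp, and none of the 4 overlapped an SN peak. Adpgk, Btla, Etv5 and Kcnma1 had 3 each. Members in runs of 2 or more listed peaks of the same direction no more than 10 kb apart made up 45.4% (41.5 to 49.3%) of hyperacetylated and 28.3% (23.9 to 33.1%) of hypoacetylated motor cortex members. In the SN the shares were 26.0% (18.5 to 35.1%) and 19.2% (13.4 to 26.9%). Listed peaks of every class were in such runs in 39.9% and 33.9% of cases in the motor cortex and in 18.8% and 27.1% in the SN.

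A promoter peak listed in the same direction and region accompanied a minority of the genes. It was found for 12 of 97 and 6 of 117 genes with hyperacetylated and hypoacetylated SN members, and for 64 of 515 and 26 of 318 genes of the motor cortex. In the SN these included Mcl1, Cebpd, Ctsd, the cathepsin D gene, and Sulf2 among hyperacetylated genes and Slain1, Pbx3 and Rasgrp3 among hypoacetylated ones. Promoter peaks of the 4 lists, in the same order, were assigned to 263, 90, 546 and 388 genes. The RefSeq table holds 23154 protein-coding genes, so a listed promoter peak was rarer still over genes at large. Members of both directions in the same region were assigned to 2 of 212 SN genes, Agap1 and Strn, and to 10 of 823 motor cortex genes, which included Nfkb1, Kif13b and Synj2. Mixed direction was more frequent when opposite peaks of any class counted. Genes with a hyperacetylated or hypoacetylated member then numbered 5 of 97 and 7 of 117 in the SN. The motor cortex numbers were 73 of 515 (14.2%) and 48 of 318 (15.1%). Across regions, 34 genes had a hyperacetylated member in each, 35.1% of the SN genes and 6.60% of the motor cortex genes. Another 39 had a hypoacetylated member in each (33.3% and 12.3%). Over listed peaks of every class the corresponding shares of genes were higher, 49.1% and 14.4% for hyperacetylated and 61.4% and 18.6% for hypoacetylated peaks, so sharing of genes was not particular to the members. Genes with a hyperacetylated SN and a hypoacetylated motor cortex member numbered 4 (Adpgk, Nfkbiz, Rnf144b and Strn), 4.12% of the SN genes. Those with the reverse numbered 7 (5.98%). Over listed peaks of every class, of which a gene can have more, these shares were 23.5% and 25.5%.

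Gene lists are given as counts beside the share over all 23154 protein-coding genes of the RefSeq table with a member. That share was 0.488% for hyperacetylated and 0.605% for hypoacetylated SN members and 2.74% and 1.33% for those of the motor cortex. For counts over listed peaks of any class, the corresponding shares were 3.13% and 3.63% in the SN and 10.9% and 11.2% in the motor cortex. The gene lists are short and were chosen with earlier results of these data known. No difference from these shares, of whatever size, is therefore read as a result.

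Complex I is the target of rotenone. Its subunit and assembly genes were listed by the start of their symbols, which does not show that each gene belongs to complex I. Of the 102 genes listed in this way, 1 had a hyperacetylated and 0 a hypoacetylated SN member. In the motor cortex 3 had a hyperacetylated and 2 a hypoacetylated member, a pseudogene among the latter. The hyperacetylated motor cortex peaks at Ndufa7 and Ndufa4l2 measured 1094 and 1736 bp, and the hypoacetylated ones at Ndufs5 and the pseudogene Ndufs6-ps1 1409 and 2920 bp.

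Of 38 cytokine, NF-kB and STAT signalling genes, 4 had a hyperacetylated and 0 a hypoacetylated member in the SN, and 17 and 2 had a listed SN peak of any class. They were Mcl1, Nfkbiz, an inducible NF-kB cofactor gene, with a 5' UTR peak of 2757 bp (chr11:44798749-44801505), Cebpd and Cxcl11. The peak assigned to Cebpd, a transcription factor gene of acute inflammation, lay in an exon of Spidr (1890 bp, chr11:84771986-84773875). The peak assigned to the chemokine gene Cxcl11 lay in an exon of Art3 (2015 bp, chr14:15657307-15659321). In the motor cortex, the interleukin-6 receptor gene Il6r had a hyperacetylated 3' UTR peak of 9199 bp. Nfkb1, encoding an NF-kB subunit, had a hyperacetylated peak of 2127 bp and a hypoacetylated one of 3416 bp, and Nfkbiz had a hypoacetylated one of 4957 bp. Over peaks of any class, 17 of the 38 genes had a hyperacetylated and 9 a hypoacetylated motor cortex peak.

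Of 20 glucocorticoid-induced genes, 1 had a hyperacetylated SN member, Klf9, with a 3' UTR peak of 7212 bp (chr1:220716840-220724051). In the motor cortex, 4 had hyperacetylated members and 0 hypoacetylated ones. Besides Zbtb16 these were Errfi1, with a 3' UTR and a downstream peak, Sult1a1, whose peak lay in an exon of Sgf29, and Fkbp5, where an exonic peak of 361 bp was assigned to Tulp1. Of 23 AP-1 and early response genes, Fosl2 (3' UTR, 1913 bp) and Ier2 had hyperacetylated motor cortex members, the Ier2 peak lying in an exon of the calcium channel gene Cacna1a (5087 bp).

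Of 42 synaptic genes, 6 had a hyperacetylated and 0 a hypoacetylated motor cortex member, whereas 18 and 14 had a hyperacetylated or hypoacetylated motor cortex peak of any class. By assigned gene alone 2 of the 6 would have been counted, and in the hypoacetylated list the assigned gene was the one name that could be read. Ank3, which encodes ankyrin-G of the axon initial segment, held 4 hyperacetylated exonic peaks of 1033 to 5834 bp, 2 of them assigned to Mrln. Shank3, a postsynaptic scaffold gene, held a peak of 7503 bp assigned to Acr (chr7:120614289-120621791), of which SN peaks covered 7.26%. Syn2, a synaptic vesicle gene, held 1 of 4552 bp assigned to Timp4 and overlapped by no SN peak. Gabbr2, a GABA-B receptor subunit gene, held 1 of 2320 bp assigned to Tbc1d2, and Grm7, a presynaptic glutamate receptor gene, had a peak of 1644 bp under its own name. The remaining gene was Cacna1a. In the SN, 1 of the 42 had a member, the complexin gene Cplx3, with a hyperacetylated 3' UTR peak of 2526 bp.

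Markers of cell types were examined in the same way. Myelin and oligodendrocyte genes (18) had hypoacetylated motor cortex peaks at Ermn (4471 bp) and Fa2h (4979 bp), each covered in full by an SN peak, and a hyperacetylated one at Mag (3067 bp). Astrocyte genes (12) had hypoacetylated motor cortex peaks at the glutamate transporter genes Slc1a2, with a 3' UTR peak of 4163 bp and a downstream peak of 2964 bp, and Slc1a3 (1434 bp). Over listed SN peaks of any class, 5 myelin and 5 astrocyte genes had a hypoacetylated one, and 1 of each a hyperacetylated one. In the motor cortex 8 and 7 had a hypoacetylated peak of any class, and 2 and 3 a hyperacetylated one. Among 14 microglial genes, 0 had an SN member and 1 had a motor cortex member, which was hypoacetylated. Over peaks of any class, however, 4 of the 14 had a hyperacetylated and 0 a hypoacetylated SN peak. The corresponding motor cortex numbers were 2 and 6. Of 13 dopaminergic genes, Aldh1a1, which marks a subset of SN dopaminergic neurons, had a hypoacetylated SN peak of 1299 bp (chr1:218143014-218144312). Of 27 Wnt pathway genes, 1 had a member, Tcf4, with a hyperacetylated motor cortex peak of 4181 bp. Over peaks of any class, 0 of the 27 had a hyperacetylated and 7 a hypoacetylated SN peak. In the motor cortex these numbers were 5 and 9. Peak positions give no expression of these markers, so a change in cell make-up was not tested.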

How the data were processed

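H3K27ac ChIP-seq was run on SN and motor cortex of 9 rats, in 38 sequencing runs with inputs. Per the labels and methods, the authors trimmed reads (Trim Galore 0.6.7, FastQC 0.11.9), aligned them to mRatBN7.2 (Bowtie2 2.4.4), removed duplicates (Picard 2.6.0), called peaks on merged samples against pooled input (MACS2 2.2.7.1), counted reads (featureCounts 2.0.5), tested with edgeR and annotated with ChIPseeker. The 2 deposited files hold peak positions. They carry no counts, so the depth behind each peak cannot be read from them. The paper reports more reads in the motor cortex than in the SN, and so more power to detect differences there. How far depth limits the precision of the values given here cannot be stated.

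Members came from a text copy of the study's 4 lists of differential peaks, read from page images. Chromosome, start, end, class and gene were used. The lists' fold changes, p-values, FDRs and distances were not. Of 11318 rows, 1 matched no deposited peak and was no member, and 30 members had no readable gene name. Positions are 1-based. Overlaps (Python 3.11.15, pandas 2.3.3) needed 1 bp, were tested on simulated data and were checked with bedtools 2.31.1. Gene order and microRNAs came from RefSeq GRCr8, whose coordinates were not used.

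Named peaks are the 5 widest and the narrowest of each list, the 5 widest without an overlap, opposite pairs and the 5 widest pairs of each direction, genes with most members, the 5 widest with a differing exon gene, and gene-list genes; a few of these are not reported here. Members and lists were chosen with earlier results of these data known.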

Additional observations from a re-analysis of the deposited data

How the results depend on the processing

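The 22 alternatives covered the overlap shares, the same-direction pairs, the median widths and the differing exon genes. Of these, 8 left a value within its interval, or a count within 1.5 times, and 14 moved it. The shares of hyperacetylated peaks, the runs, the gene lists and the gene overlaps had no alternative. Requiring a reciprocal overlap of 50% lowered the share of SN members overlapping a motor cortex peak from 90.2% to 71.8%, the share of motor cortex members overlapping an SN peak from 67.3% to 42.4%, and the pairs in the same direction from 103 to 67, with 0 opposite. Using peaks of at least 1000 bp alone gave 82.4% and 60.5%. Counting peaks up to 1000 bp apart as shared gave 70.4% in the motor cortex and 4 opposite pairs of 128. Joining members with peaks of their region's list within 1000 bp raised the median widths to 5043 and 3841 bp for hyperacetylated and hypoacetylated SN members and to 3296 and 3198 bp in the motor cortex, which follows from the joining. Exonic members alone had a median of 2465 bp in the hyperacetylated SN list, and UTR and downstream members alone had 3464 bp there and 2530 and 2946 bp in the motor cortex. Matching exon genes by transcript gave 181 differing members (35.5% of 510). No paired analysis was possible because the files hold no value per rat, and for the same reason leaving out a replicate was not possible.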

Other observations

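The share of peaks that were members differed between chromosomes, around 1.21% over the whole motor cortex list and 0.331% over the SN list. In the motor cortex, 1.99% of the peaks on chromosome 20 (40 of 2015) and 1.70% of those on chromosome 10 (94 of 5543) were members, against 0.718% on chromosome 6 (32 of 4455) and 0.483% on chromosome X (6 of 1242). Chromosome 12 had 33 hyperacetylated and 7 hypoacetylated motor cortex members, and chromosome 15 had 10 and 16. In the SN, chromosome 3 held the most members, 29 of 5341 peaks (0.543%), and chromosome 19 held 1 hyperacetylated and 8 hypoacetylated ones. Over all chromosomes, 617 motor cortex members were hyperacetylated and 364 hypoacetylated, and the SN had 104 and 130. Several of the counts per chromosome are small, and no interval or test is given for them. Gene density, which differs between chromosomes, was not compared with these shares, nor was the direction of other listed peaks of the same chromosome.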
